A study of Mus musculus with 8 samples.

Results

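BMP, GDF and TGF-beta proteins are secreted signals of the TGF-beta superfamily, and the data described here are the H3K27Ac peaks at 10 genes that encode them in P7 mouse ventricles: *Bmp2*, *Bmp4*, *Bmp6*, *Bmp7*, *Bmp10*, *Gdf6*, *Tgfb1*, *Tgfb2*, *Tgfb3* and *Inhba*. A peak was counted to a gene when its centre lay nearer to a RefSeq transcription start of that gene than to the start of any other gene. This gave 27 of 45980 peaks, at 8 of the 10 genes, since no peak lay nearest to *Bmp4* or *Bmp10*. The study asked how cardiomyocytes depend on *Arid1a*, the gene of a DNA-binding SWI/SNF subunit, during postnatal maturation of the heart. It compared 2 Arid1a f/f control hearts with 2 aMHC-Cre;Arid1a f/f hearts (*Arid1a cKO*), all at postnatal day 7 and on a C57BL/6J background, so that both groups carried the floxed alleles and the Cre transgene set them apart. The αMHC promoter drives Cre in cardiomyocytes, while the ventricles also hold fibroblasts, endothelial cells and other cells in which *Arid1a* was not targeted. H3K27Ac, an acetylated histone found at active promoters and enhancers, was measured by ChIP-Seq, with an input library for each heart, for 8 libraries in all.

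The ligands of this family are made as larger precursors, are cut and secreted as dimers, and bind pairs of type I and type II serine/threonine kinase receptors. BMPs and GDF6 pass the signal to SMAD1, SMAD5 and SMAD9, whereas TGF-beta and activin pass it to SMAD2 and SMAD3. In the heart, BMP ligands take part in the specification of the myocardium and in the formation of the valves and trabeculae, and TGF-beta ligands act on fibroblasts, smooth muscle and endothelium. TGF-beta is held in the matrix in a latent form until it is activated.

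The deposited table gives for each peak the authors' mean of each group as the log2 of normalized reads, called the concentration below, and values in reads are those means with the log2 removed. Since 0 of its columns hold values of single samples, library depth is unknown, the spread between the 2 hearts of a group cannot be given, and no test between the genotypes was made here (the authors' own test was not used). Each difference below is the log2 concentration in *Arid1a cKO* minus that in control and has no replicate error. Across all peaks the median difference was 0.01, and the central 95% ran from -2.42 to 1.27. With all peaks divided into 4 equal bands by their overall concentration, this range narrowed from -3.40 to 1.90 in the weakest band to -1.04 to 0.48 in the strongest, so each difference is set beside the peaks of its own band. At the start of *Arid1a* itself the peak had 1607 reads in control and 1663 in *Arid1a cKO*, and a mark at the promoter does not check a deletion inside the gene. In whole ventricles, fewer cells of a type and less of the mark per cell cannot be told apart.

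Above the weakest band, the 2 highest differences were those of the distal peaks upstream of *Gdf6*, and their sequences are shown so that the gained regions can be read beside a lost one. From each peak the 200 bases with the most matches to 5 searched motifs are given, outside exons and promoters. Windows from the peak with the largest loss, in *Bmp7*, and from that with the largest gain around *Inhba* were added after their values were seen. All windows are the plus strand of GRCm38.p6 (mm10), with motif matches on either strand in capitals. The motifs were CATTCC for TEAD, TGANTCA for AP-1, CACGTG for the E-box, AGATAA for GATA factors, and MEF2.
Gdf6 -18.3 kb, chr4:9825968-9826167: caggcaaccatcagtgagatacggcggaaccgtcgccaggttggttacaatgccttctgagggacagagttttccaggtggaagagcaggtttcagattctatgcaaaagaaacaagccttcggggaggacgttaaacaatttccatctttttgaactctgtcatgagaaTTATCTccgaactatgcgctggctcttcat
Gdf6 -14.4 kb, chr4:9829979-9830178: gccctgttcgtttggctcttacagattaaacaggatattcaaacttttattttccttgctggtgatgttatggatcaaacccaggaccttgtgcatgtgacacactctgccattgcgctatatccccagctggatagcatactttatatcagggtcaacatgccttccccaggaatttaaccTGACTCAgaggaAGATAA
Bmp7 +25.9 kb, chr2:172914244-172914443: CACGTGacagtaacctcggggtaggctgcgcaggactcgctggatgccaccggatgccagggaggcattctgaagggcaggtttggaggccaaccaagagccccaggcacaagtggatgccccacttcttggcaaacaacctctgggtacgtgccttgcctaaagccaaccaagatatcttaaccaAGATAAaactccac
Inhba +11.4 kb, chr13:16023031-16023230: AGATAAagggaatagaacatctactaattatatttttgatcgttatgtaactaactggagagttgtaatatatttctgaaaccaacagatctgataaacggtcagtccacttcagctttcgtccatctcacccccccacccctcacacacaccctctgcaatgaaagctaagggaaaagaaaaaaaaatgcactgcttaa

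The window upstream of *Gdf6* at -18.3 kb held 1 GATA match, and that at -14.4 kb held 1 AP-1 match and 1 GATA match. The *Bmp7* window held 1 E-box and 1 GATA match, and the *Inhba* window 1 GATA match. Among the central 200 bases of all peaks, 11.3% held a TEAD core, 6.07% AP-1, 3.28% an E-box, 9.13% GATA and 1.11% MEF2. The printed windows were picked for their matches, so their counts describe these letters and do not compare with those shares.

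The promoters of the member with the strongest peak and of one with no peak are given as well, as the 250 bases before the RefSeq transcription start in the direction of the gene, with each CG in capitals. RefSeq entries were matched for 6 of the 10 genes in the promoter table used here, and those of *Bmp2*, *Bmp7*, *Gdf6* and *Tgfb3* were missing.
Tgfb1 promoter, chr7:25686752-25687001: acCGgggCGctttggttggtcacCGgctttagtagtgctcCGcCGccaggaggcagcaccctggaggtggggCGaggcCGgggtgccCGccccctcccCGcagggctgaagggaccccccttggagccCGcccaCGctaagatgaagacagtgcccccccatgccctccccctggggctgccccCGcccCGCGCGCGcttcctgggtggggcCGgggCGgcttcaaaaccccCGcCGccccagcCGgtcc
Bmp10 promoter, chr6:87428744-87428993: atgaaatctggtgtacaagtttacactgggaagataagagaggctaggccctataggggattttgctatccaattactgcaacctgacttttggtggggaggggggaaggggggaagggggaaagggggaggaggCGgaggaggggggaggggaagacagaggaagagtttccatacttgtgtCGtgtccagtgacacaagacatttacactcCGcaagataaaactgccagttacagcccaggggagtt

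The *Tgfb1* promoter, under the strongest peak of all 27, held 21 CG and was 75.2% G and C. The *Bmp10* promoter, which no peak covered, held 3 CG and was 52.0% G and C. Of all 32851 promoters in the table, 16.3% had as many CG as *Tgfb1* and 71.0% as many as *Bmp10*, beside a median of 6. The *Bmp10* promoter held 2 GATA matches, which 9.99% of promoters had at least 1 of, and no match to the other motifs searched.

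The differences of the 27 peaks went in both directions, and without replicate error no difference between genes was tested. In *Arid1a cKO*, 18 were higher (66.7%, against 50.6% of all peaks) and 9 were lower. The median difference was 0.36, which was 0.21 without the 8 *Tgfb3* peaks and 0.235 without the 3 *Gdf6* peaks. *Gdf6* had the largest gains, all 4 peaks of *Bmp7* were lower, the TGF-beta genes were slightly higher at nearly every peak, and *Tgfb1* was level. At least 2-fold higher were 4 of the 27 peaks (14.8%), against 4.57% of all peaks, and at least 2-fold lower were 3 (11.1%), against 10.6% of all peaks. The count of losses was thus near the background of all peaks, and the 4 gains came from 3 genes, with *Gdf6* giving 2 of them. Of the 27 peaks, 24 lay within the central 95% of the differences of all peaks in their own band, and the 3 outside were both distal *Gdf6* peaks and *Bmp7* +25.9 kb. The last was placed by an *Arid1a cKO* mean of 1.42 reads. With all group means raised to 3 reads, 0.571% of peaks in its band had a difference as low.

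**Figure D1:**
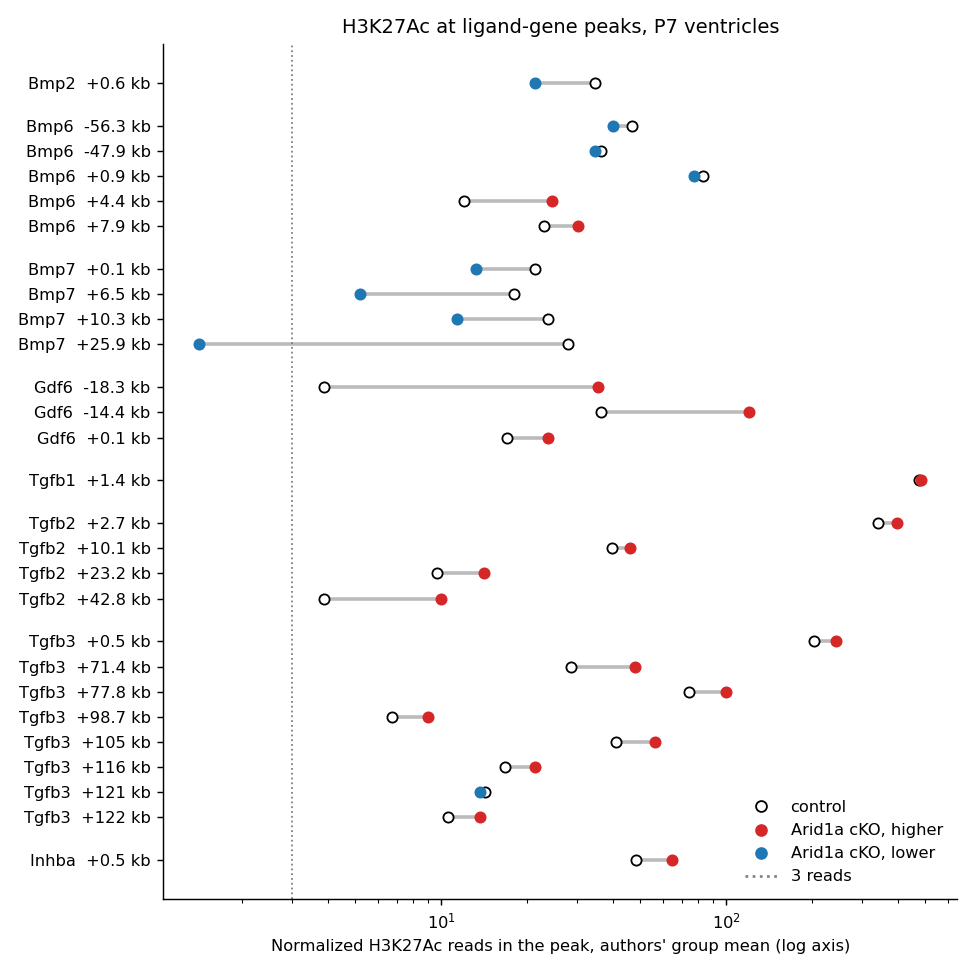
Normalized H3K27Ac reads (log axis, the authors' group mean) at each of the 27 peaks, labelled by gene and by the distance of the peak centre from the transcription start; open circles are control, filled circles *Arid1a cKO*, red where higher and blue where lower. The widest spans are *Bmp7* +25.9 kb, whose *Arid1a cKO* mean of 1.42 lies under the dotted line at 3 reads, and *Gdf6* -18.3 kb.

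The peaks were mostly weak. In the 2 weaker bands lay 19 of the 27 (70.4%), and the median in control was 27.9 reads, against 44.9 over all peaks. Their widths ran from 541 to 5793 bp and their G and C content from 42.0% to 70.5%. By the peak centre, 17 lay in introns, 6 in exons and 4 between genes. Of the 17 intronic peaks, 10 lay in introns of the ligand gene itself and 7, all counted to *Tgfb3*, in introns of *Ttll5*, a tubulin-modifying enzyme gene.

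Each of the 8 genes with a peak had 1 peak over its start, and these set the order of promoter acetylation. Per kb of peak in control, *Tgfb1* came first with 111 reads, then *Tgfb3* with 64.1 and *Tgfb2* with 58.7, near the median of 62.3 over all 12022 peaks that cover a start. The BMP-type and activin genes followed well below, with 28.3 for *Inhba*, 23.8 for *Bmp6*, 22.3 for *Bmp7*, 22.2 for *Bmp2* and 8.78 for *Gdf6*. Of all peaks over a start, 99.2% had at least as many reads per kb as that of *Gdf6*. In *Arid1a cKO* the values were 114 for *Tgfb1*, 76.2 for *Tgfb3*, 68.4 for *Tgfb2*, 37.9 for *Inhba*, 22.2 for *Bmp6*, 13.9 for *Bmp7*, 13.5 for *Bmp2* and 12.2 for *Gdf6*. The order was the same in both groups, and whether neighbours such as *Bmp7* and *Bmp2* differ cannot be said without the spread between hearts. None of the 8 promoter peaks reached a 2-fold difference, and all 7 peaks that did lay outside them. Of all peaks over a start, 1.16% were at least 2-fold higher and 1.70% at least 2-fold lower.

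*Gdf6* encodes a BMP-type ligand best known from joint and skeletal patterning. The gene lies at chr4:9844372-9862345 on the plus strand, and its 3 peaks were all higher in *Arid1a cKO*. The peak at -18.3 kb (chr4:9825270-9826865, intergenic) had 3.89 reads in control and 35.5 in *Arid1a cKO*, a difference of 3.19 or 9.13-fold. The peak at -14.4 kb (chr4:9828785-9831212, intergenic) had 36.3 and 120 reads, a difference of 1.73 or 3.32-fold. In their bands, 0.0956% and 0.192% of all peaks had differences as high. The first of the pair was therefore just over 3 reads in control, a level treated here as a floor below which no fold is given, while the second was already marked there and was the strongest peak of the gene in both groups. The promoter peak (chr4:9843508-9845461) had 17.1 and 23.8 reads, a difference of 0.47, which 21.9% of peaks in its band reached. The 3 peaks summed to 57.3 reads in control and 180 in *Arid1a cKO*. The one further peak within 100 kb of the start, at -73.7 kb over the noncoding gene *4930412C18Rik*, had 65.3 and 88.0 reads, a difference of 0.43.

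*Bmp7* encodes a BMP ligand of the same subgroup as BMP6. It was the opposite case, with 4 of 4 peaks lower in *Arid1a cKO* and all of them inside the gene, which spans chr2:172868012-172940321 on the minus strand. The intronic peak at +25.9 kb (chr2:172913776-172914969) had 27.9 reads in control and 1.42 in *Arid1a cKO*, which is below the floor of 3 reads and so at least 9.29-fold lower. With group means raised to 3 reads, 0.571% of peaks in the weakest band had a difference as low. The peak at +6.48 kb (chr2:172933460-172934213) had 18.0 and 5.21 reads, a difference of -1.79, and that at +10.3 kb (chr2:172929475-172930604) had 23.8 and 11.4 reads, a difference of -1.06. In that band differences as low were common, with 8.65% and 15.4% of peaks. The promoter peak (chr2:172939747-172940700) had 21.3 and 13.3 reads, a difference of -0.68, which 22.6% of peaks reached. In control the 4 peaks were much alike, at 18.0 to 27.9 reads, and in *Arid1a cKO* they ranged from 1.42 to 13.3. All 4 lie in the weakest band, and with predicted transcripts added the 3 intronic peaks went to other genes, which left the promoter peak and no difference past 2-fold. Of the 4 other peaks within 100 kb, all upstream and counted to *Rae1* or *Rbm38*, none reached 2-fold. The strongest of them, at -83.6 kb in *Rbm38*, had 501 and 278 reads, a difference of -0.85. In the strongest band 3.8% of peaks had a difference as low.

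*Bmp2*, whose ligand acts in early myocardium and in the endocardial cushions, had its only peak over the start (chr2:133551972-133553540). It had 34.8 reads in control and 21.3 in *Arid1a cKO*, a difference of -0.71, and no other peak lay within 100 kb. Such a difference was reached by 19.2% of peaks in its band. The peaks over the starts of *Bmp2* and *Bmp7* were lower to a like degree, and the other 6 promoter peaks had differences between -0.10 and 0.47.

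*Bmp6*, a BMP ligand known for its part in iron balance and made by endothelial cells, had 5 peaks with a median difference of -0.06. Its strongest peak covered the start (chr13:38344832-38348306) with 82.7 reads in control and 77.2 in *Arid1a cKO*, a difference of -0.10. Both upstream peaks were close to level, with 46.9 and 40.2 reads at -56.3 kb (chr13:38288157-38290754, difference -0.22, the lowest of the gene) and 36.3 and 34.8 reads at -47.9 kb (difference -0.06). The peaks in the first part of the gene body leaned the other way. At +4.42 kb (chr13:38349425-38350852) there were 12.0 and 24.6 reads, a difference of 1.04, which 3.69% of peaks in its band reached, and at +7.88 kb there were 22.9 and 30.3 reads, a difference of 0.40. Summed over the 5 peaks the gene had 201 reads in control and 207 in *Arid1a cKO*. Among the 5 other peaks within 100 kb, which lay nearest to *Snrnp48* or the noncoding gene *4930579J19Rik*, the peak at -73.0 kb had 23.6 and 9.99 reads, a difference of -1.24.

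**Figure D2:**
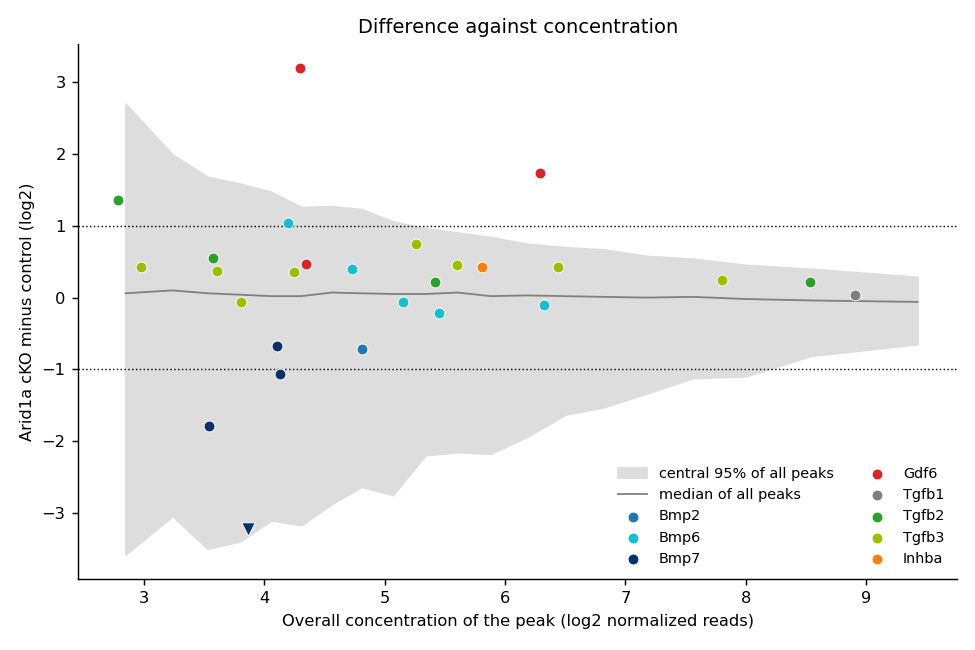
Difference between *Arid1a cKO* and control (log2) against the overall concentration of each of the 27 peaks (log2 normalized reads), coloured by gene, over the median and the central 95% of all peaks in 20 bins of concentration (grey); dotted lines mark 2-fold, and the triangle is *Bmp7* +25.9 kb drawn at its bound of -3.22 against the floor of 3 reads. The grey band uses means not raised to that floor, so the triangle is not placed on the same footing. The distal *Gdf6* peaks at 3.19 and 1.73 stand above the grey band, and the TGF-beta genes lie inside it, except that the weakest *Tgfb2* peak lies just left of its edge.

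The TGF-beta genes, which encode the ligands TGF-beta 1, 2 and 3, held 13 of the 27 peaks, 7 of them in introns of *Ttll5*. Of the 13 peaks, 12 (92.3%) were higher in *Arid1a cKO*, against 50.6% of all peaks. Their median difference was 0.37, against 0.01 over all peaks, and 1 of the 13 (7.69%) was at least 2-fold higher and 0 were at least 2-fold lower, against 4.57% and 10.6% of all peaks. With predicted transcripts added to the annotation, all 4 *Tgfb2* peaks and 7 of the 8 *Tgfb3* peaks went to other genes, which left 2 of the 13. *Tgfb1*, the form best known from fibrosis, had 1 peak, which covered the start (chr7:25686243-25690497) and was the strongest of all 27. It had 474 reads in control and 484 in *Arid1a cKO*, a difference of 0.03. The 18 other peaks within 100 kb of this gene-dense start lay nearest to other genes, and the 2 of them at least 2-fold lower were weak. One lay in an intron of *Tgfb1* at +17 kb with 17.5 and 7.11 reads (difference -1.30), and the other in *Hnrnpul1* at +60.6 kb with 16.1 and 1.91 reads, a value under the floor.

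*Tgfb2*, whose ligand acts in the endocardial cushions and the outflow tract, had 4 peaks, all higher. That over the start (chr1:186700407-186706199) was the widest and strongest, with 340 reads in control and 396 in *Arid1a cKO*, a difference of 0.22. The 3 others lay in introns of the gene and grew weaker with distance from the start. They had 39.7 and 45.9 reads at +10.1 kb (difference 0.21, the lowest of the gene), 9.71 and 14.2 at +23.2 kb (0.55) and 3.89 and 9.99 at +42.8 kb (chr1:186662925-186663465, 1.36). The last was at least 2-fold higher from a control mean just over the floor, and 6.61% of peaks in its band had differences as high. The 2 weakest peaks thus had the largest differences, and in summed reads, where the strong promoter peak weighs most, the gene had 393 reads in control and 466 in *Arid1a cKO*, a log2 ratio of 0.25.

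*Tgfb3*, whose ligand acts in the palate and in matrix-producing cells, had the most peaks, with 8. The promoter peak (chr12:86076994-86080170) was the strongest, with 204 reads in control and 242 in *Arid1a cKO*, a difference of 0.25. The other 7 formed a stretch 71.4 to 122 kb downstream of the start, in introns of *Ttll5*. Of these 7, 6 were higher, where 50.6% of all peaks were. The largest difference was 0.74, at +71.4 kb (chr12:86006878-86008496, 28.6 and 47.8 reads), and the strongest distal peak at +77.8 kb had 74.0 and 99.7 reads (0.43). The peaks at +98.7, +105, +116 and +122 kb had differences of 0.42, 0.45, 0.36 and 0.37, and the peak at +121 kb, with 14.3 and 13.7 reads, had -0.06. The 7 differences thus ran from -0.06 to 0.74, at 6.73 to 74.0 control reads, and each was reached by at least 10.1% of peaks in its band. The 5 peaks between the start and -31.0 kb lay in introns of *Ift43*, whose start they were nearest to, and 4 of them had differences between 0.12 and 0.16, while the weak peak at -19.3 kb had 7.21 and 18.5 reads (1.36).

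*Inhba* encodes the beta-A subunit of activin A and of inhibin A. Its own peak covered the start (chr13:16011518-16013219) with 48.2 reads in control and 64.4 in *Arid1a cKO*, a difference of 0.42, which 13.9% of peaks in its band reached. Inside the same gene lay 2 peaks counted by the rule to *B230303A05Rik*, a noncoding gene that overlaps *Inhba*. The peak at +6.33 kb (chr13:16017144-16019218) had 39.7 and 69.1 reads, a difference of 0.80. That at +11.4 kb (chr13:16022452-16024103) had 3.63 and 29.9 reads, a difference of 3.04, from near the floor in control, and 0.562% of peaks in its band had differences as high. This peak also covers the start of the noncoding gene. The 3 peaks at *Inhba* were therefore all higher in *Arid1a cKO*, by 0.42, 0.80 and 3.04 in order from the start, and which of the overlapping genes the last pair belongs to cannot be read from the mark.

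*Bmp4*, active in the outflow tract and second heart field, and *Bmp10*, a ligand of the trabecular and atrial myocardium, had no peak by the rule. Most of *Bmp4* (chr14:46383525-46390669, minus strand) was nevertheless covered by a strong peak (chr14:46385279-46390595) that ended 0.074 kb inside the start and was counted to the noncoding gene *Gm15222*, whose start it covers. It had 159 reads in control and 193 in *Arid1a cKO*, a difference of 0.28. Of the other 3 peaks within 100 kb, nearest to *Gm15217*, the largest difference was 0.87 at +90.1 kb, with 21.0 and 38.3 reads. For *Bmp10* (chr6:87428994-87434512, plus strand) the nearest peak was 64.9 kb away, in *Arhgap25*. The 4 peaks within 100 kb had differences between 0.21 and 0.29. With no peak over *Bmp10*, H3K27Ac there was below what was called as a peak in at least 2 of the samples, which gives no value for the gene.

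**Figure D3:**
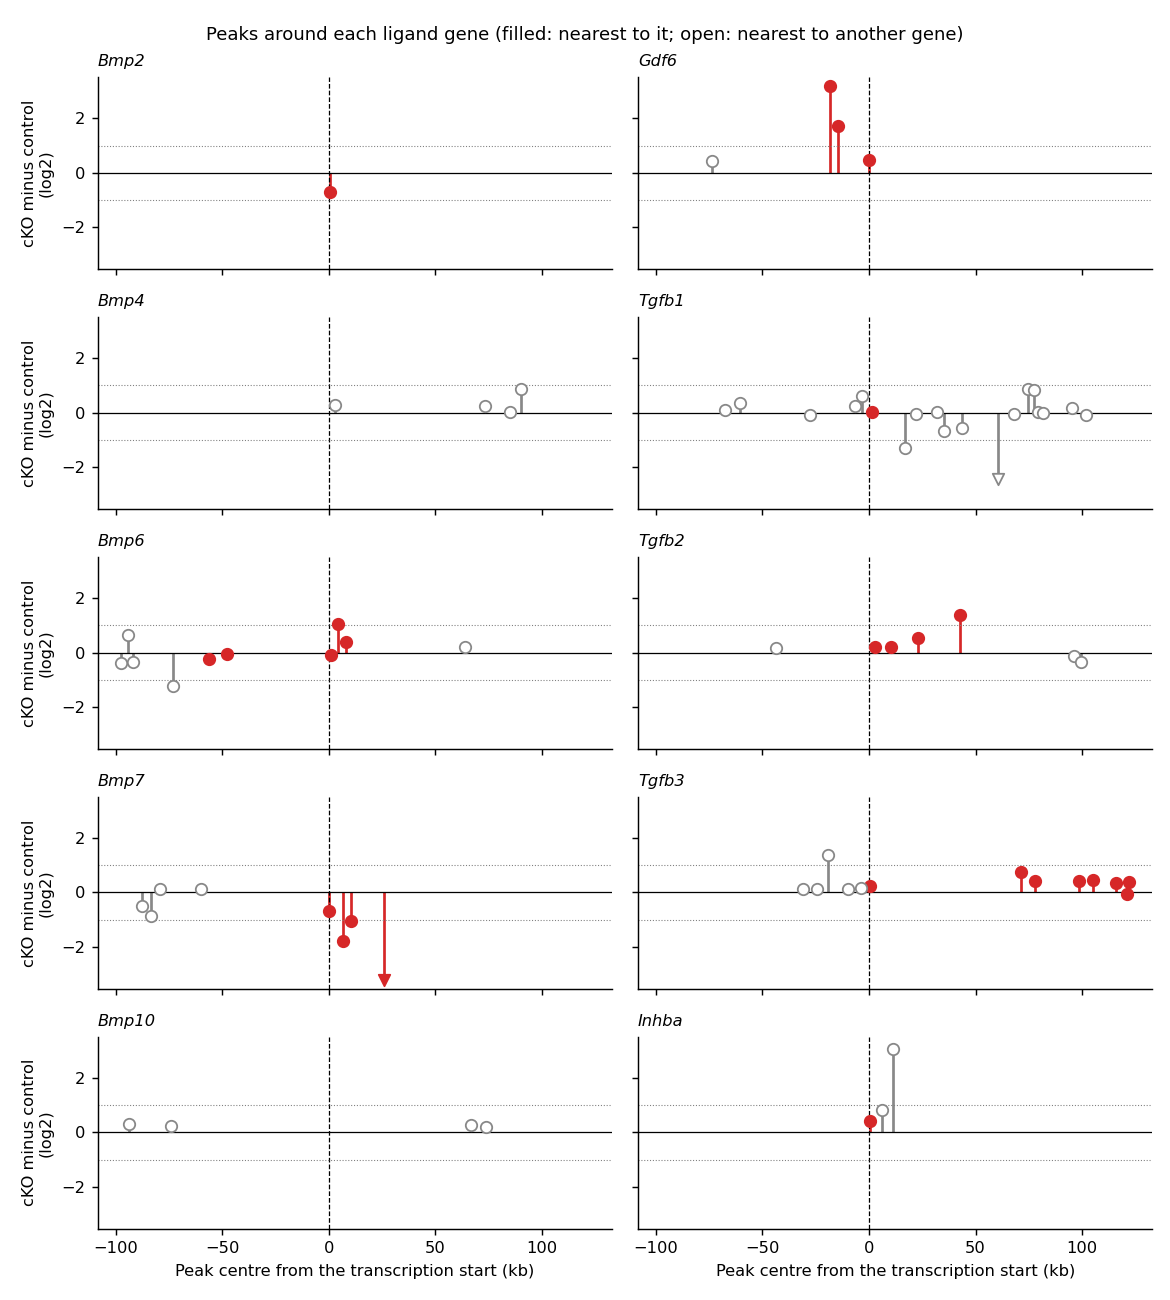
Difference between *Arid1a cKO* and control (log2) of every peak within 100 kb of the start of each of the 10 genes, and of the *Tgfb3* peaks beyond, against the distance of the peak centre from the transcription start (kb, upstream negative). Red filled marks are peaks nearest to the gene, grey open marks peaks nearest to another gene, dotted lines 2-fold, and triangles bounds against the floor of 3 reads. The *Gdf6* gains lie at -18.3 and -14.4 kb and the *Bmp7* losses inside the gene, and the peak 11.4 kb into *Inhba* is an open mark at 3.04.

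Counting each gene by all peaks within 100 kb of its start, whichever gene was nearest, gave 69 peaks with a median difference of 0.16. Of these, 6 were at least 2-fold higher and 6 at least 2-fold lower, where the shares among all peaks were 4.57% and 10.6%. The gains were then the 2 at *Gdf6* and 1 each at *Bmp6*, *Tgfb2*, *Tgfb3* and *Inhba*, and the losses 3 at *Bmp7*, 2 at *Tgfb1* and 1 at *Bmp6*.

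Motif matches over whole peaks were close to those of all peaks for most of the 5 motifs. A TEAD core was present in 17 of the 27 (63.0%, 95% Wilson interval 44.2 to 78.5, counting error only), against 65.4% of all peaks. AP-1 was in 9 (33.3%, against 44.7%), GATA in 16 (59.3%, against 60.1%), MEF2 in 1 (3.70%, against 7.56%) and an E-box in 10 (37.0%, against 28.9%). Peak width sets how often a motif is met, so matches per kb are the fairer measure. There were 0.492 TEAD cores per kb in the 27 peaks and 0.612 in all peaks, and 0.315 E-boxes per kb against 0.167. AP-1 had 0.236 per kb against 0.309, GATA 0.472 against 0.538 and MEF2 0.0197 against 0.0334. The E-box value rests on 16 matches and has no interval. The most E-boxes in 1 peak were 3, in the *Tgfb2* promoter peak. Of the distal *Gdf6* peaks, that at -18.3 kb held no TEAD core and that at -14.4 kb held 1, together with 4 GATA matches and 1 AP-1 match.

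Pooled over its peaks, the rest of the pathway had a median closer to level, but single genes did not all follow it. With group means raised to 3 reads, gene medians ran from -2.20 (*Bmpr1b*) to 1.73 (*Thbs1*), beside -1.43 to 1.73 for the ligand genes. At 65 of 86 other genes of the pathway there were 277 peaks, with a median difference of 0.01, and 11 of them (3.97%) were at least 2-fold higher and 27 (9.75%) at least 2-fold lower, both near the shares of all peaks. Among 23 other ligand genes, 12 had peaks. Of their 19 peaks, 0 were at least 2-fold higher and 2 (10.5%) lower, against 4.57% and 10.6% of all peaks. The highest gene medians were those of *Amh* (0.49) and *Gdf15* (0.40), a stress-induced ligand, and the lowest those of *Inha* (-1.16, 96.3 and 43.1 reads at its only peak) and *Inhbb* (-0.96), which encode an inhibin and an activin subunit. At their strongest peaks *Amh* had 23.6 and 24.8 reads and *Inhbb* 22.6 and 23.8, each a difference of 0.07. The low median of *Inhbb* came from its other peak, with 15.2 and 3.81 reads.

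Among the receptor genes the differences past 2-fold were all losses. Of their 54 peaks, 10 (18.5%) were at least 2-fold lower and 0 higher, against 10.6% and 4.57% of all peaks, with a median of -0.04. By gene, *Tgfbr3*, which encodes the co-receptor betaglycan, held 4 of the 10 losses among its 12 peaks. *Acvr1*, a BMP type I receptor gene, held 3 among its 10 peaks. Not all of these peaks were weak. That of *Tgfbr3* at +37.9 kb had 113 reads in control and 23.8 in *Arid1a cKO*, and 1.69% of peaks in its band had a difference as low. The lowest gene medians were those of *Bmpr1b* (1 peak, 13.7 and 1.91 reads, a value under the floor) and *Tgfbr1* (-0.71), and the highest those of *Tgfbr2* (0.45) and *Amhr2* (0.33). The *Tgfbr1* median came from 2 opposite peaks. Its strongest peak had 184 and 208 reads, a difference of 0.18, and a weak intronic peak had 13.0 and 4.26, a difference of -1.61. At its strongest peak, *Tgfbr2*, the TGF-beta type II receptor gene, had 471 reads in control and 501 in *Arid1a cKO*.

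Inside the cell and around the ligands the medians over all peaks of a list were small. The SMAD genes had 57 peaks with a median of -0.02. Of these, 3 (5.26%) were at least 2-fold higher and 5 (8.77%) lower, against 4.57% and 10.6% of all peaks. The inhibitory *Smad6* (-0.49) and *Smad2* (-0.32) had the lowest gene medians, and *Smad9* (0.25) and *Smad3* (0.24) the highest. Genes of extracellular antagonists had 25 peaks with a median of -0.02, 2 (8.0%) of them higher and 3 (12.0%) lower. The gene medians ran from *Dand5* (-0.74) and *Bmper* (-0.57) to Sost (0.22) and *Fstl3* (0.77), the last of which encodes a protein that binds activin. Genes of latency and activation had 82 peaks with a median of 0.14, 4 (4.88%) of them higher and 5 (6.1%) lower. In that list *Thbs1*, whose product activates latent TGF-beta, had the highest median of all pathway genes, from a pair of weak peaks. One had 4.29 and 9.51 reads, a difference of 1.15, and the other 2.85 and 14.7, with the control mean under the floor, so that the median was 1.73 with that mean raised to 3 reads. Next was *Itgb8* (0.51), which encodes an integrin subunit that activates TGF-beta, and the lowest were *Ltbp2* (-1.03) and *Furin* (-0.54), the gene of a protease that cuts the precursors. Genes of signalling targets had 40 peaks with a median of -0.01, 2 (5.0%) of them higher and 2 (5.0%) lower. The gene medians ran from *Msx2* (-1.88, 15.8 and 4.29 reads) and *Bambi* (-0.35) at the low end to Tgfbi (0.16) near the high end.

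**Figure D4:**
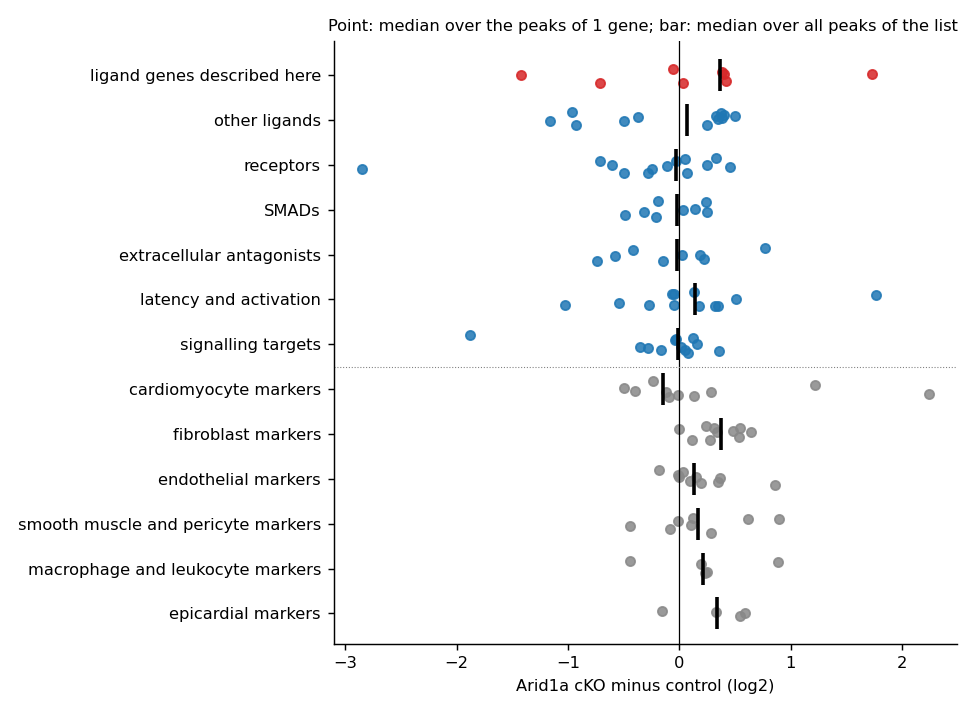
Median difference between *Arid1a cKO* and control (log2) over the peaks of each gene (points) and over all peaks of each list (black bars), for the 8 ligand genes with a peak (red), 6 lists of other pathway genes (blue) and 6 lists of cell type markers (grey). The ligand genes span -1.43 (*Bmp7*) to 1.73 (*Gdf6*), and their bar is at 0.36, or 0.21 without *Tgfb3*. The bar of the fibroblast markers is at 0.37 and that of the epicardial markers at 0.34. The receptor point farthest to the left is *Bmpr1b*, whose *Arid1a cKO* mean is under the floor of 3 reads, and that farthest to the right among the pathway lists is *Thbs1*, with a control mean under it.

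Markers of cell types were read from the same group means. The 10 fibroblast marker genes had 56 peaks with a median of 0.37, and their reads summed to 4033 in control and 5417 in *Arid1a cKO*. Of these peaks, 9 (16.1%) were at least 2-fold higher and 0 lower, against 4.57% and 10.6% of all peaks. The 5 macrophage and leukocyte marker genes with peaks summed to 142 and 184 reads, while *Adgre1*, Itgam and *Lyz2* had no peak. Smooth muscle and pericyte markers summed to 2827 and 3319 reads, with 24 peaks, a median of 0.17, 3 (12.5%) higher and 0 lower. Epicardial markers summed to 1840 and 2081 reads, with 15 peaks, a median of 0.34, 2 (13.3%) higher, 0 lower and no peak at *Upk3b*. Endothelial markers summed to 18471 and 18789 reads, with 79 peaks, a median of 0.13, 6 (7.59%) higher and 4 (5.06%) lower. The 10 cardiomyocyte marker genes summed to 22419 and 20530 reads, with 56 peaks, a median of -0.15, 3 (5.36%) higher and 4 (7.14%) lower. All 10 cardiomyocyte markers had a peak, and so did all 10 fibroblast, all 10 endothelial and all 8 smooth muscle and pericyte markers. Having a peak therefore does not tell these cell types apart. The median of the TGF-beta genes by the rule was 0.37, beside 0.37 for the fibroblast and 0.34 for the epicardial markers. That of the TGF-beta genes rests on peaks which predicted transcripts would take. In summed reads the log2 ratio was 0.03, 0.25 and 0.35 for *Tgfb1*, *Tgfb2* and *Tgfb3*. It was 0.43 for the fibroblast, 0.37 for the macrophage and leukocyte, and 0.23 for the smooth muscle and pericyte markers. For the epicardial, endothelial and cardiomyocyte markers it was 0.18, 0.02 and -0.13. The part of other cell types in the values of the ligand genes was not tested.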

How the data were processed

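H3K27Ac ChIP-Seq was carried out on P7 ventricles of 2 Arid1a f/f controls and 2 *Arid1a cKO* mutants, with inputs. The authors aligned the libraries to mm10 (BWA 0.7.17-r1188), called histone-style peaks against merged inputs (HOMER), dropped peaks found in a single sample, and ran DiffBind 2.12.0 with DESeq2 1.24.0. The deposited log2 concentrations of normalized reads per peak are their output. Library scaling and input subtraction are not given in the sources used here. Another factor for a whole group would shift all differences alike. Input subtraction, or separate factors for the 2 hearts of a group, need not do so. Columns with the authors' fold change, p-value and FDR were not used, and 0 columns hold single samples.

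Peaks on chromosomes (7 others were dropped) were counted by their centre to the nearest start of 45756 curated RefSeq transcripts (GRCm38.p6, the same build), and group means were subtracted. Counts used a 2-fold limit, and means at or under 3 reads were a floor. Named are all 10 genes, with the nearest, strongest, highest and lowest peak of each and every peak past 2-fold, and in each pathway list the 2 highest and 2 lowest gene medians, except that a sequence window and a pathway gene are not reported here. Members and lists were chosen with earlier results of these data known. The steps were tested on simulated data (Python 3.11.15, pandas 2.3.3, pysam 0.24.0).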

Additional observations from a re-analysis of the deposited data

How the results depend on the processing

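No paired analysis was possible because the table gives only group means, and for the same reason no heart could be left out. Assignment by the nearest peak edge gave the same 27 peaks, counts and median. With predicted transcripts added, only 11 peaks remained at the 10 genes (median 0.40, 3 at least 2-fold higher and 0 lower), since predicted transcripts took 3 peaks of *Bmp7*, 7 of *Tgfb3*, 2 of *Bmp6* and all 4 of *Tgfb2*. With protein-coding transcripts only there were 55 peaks, with 9 at least 2-fold higher and 3 lower, and *Bmp4* then had 7 peaks (median 0.28), *Inhba* 9 (0.80) and *Gdf6* 7 (0.47). The median was 0.25 over peaks within 100 kb of the start, 0.38 without the weakest of the 4 concentration bands, which also left 0 losses since all 3 at *Bmp7* lie in that band, and 0.35 after centring on the median of all peaks. Raising group means under 3 reads to 3 left the median and both counts as they were. All peaks within 100 kb, an alternative chosen after seeing the data, gave 69 peaks, a median of 0.16 and 6 losses, beside a share of 10.6% among all peaks. Leaving out 1 gene was also chosen after seeing the data: without *Tgfb3* the median was 0.21, and without *Gdf6* it was 0.235, with 2 gains. At a 1.5-fold limit there were 5 gains (12.0% of all peaks) and 5 losses (17.3% of all peaks), and at a 3-fold limit 2 gains (1.35% of all peaks) and 2 losses (5.60% of all peaks). Genes with a median above 0 numbered 4 to 7. In sign, only *Bmp6* changed, in 3 of 9 alternatives, between -0.08 and 0.40. TEAD cores were in 22.2% of the peaks when only the central 500 bases were read, against 26.4% of all peaks, and in 66.7% without the weakest band. The unknown depth and the missing spread between hearts limit every value, most of all at peaks with few reads.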
